A study of Drosophila melanogaster with 12 samples.

Results

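A set of 81 genes had lower transcript levels in photoreceptor nuclei of flies that expressed a dominant negative form of Clock than in control nuclei, both at day 10 (D10) and at day 2 (D2) of adult life. The 81 genes were selected on these measurements. A gene had to reach at least 20 CPM (the usual library-scaled count, a gene's count over the total of its library) in all 6 control libraries, and its highest ClkDN library had to lie under 0.6 of its lowest control library at D10 and again at D2. Of 13929 genes in the table, 2336 met the minimum, and the 81 genes made up 3.47% of those and 0.582% of the table. A further 12 genes, most of them with known roles in the clock or in phototransduction (per, tim, vri, cwo, Pdp1, ninaE, Arr1, Arr2, trp, trpl, inaD and AdoR) were set aside by name, and 11 of them met the same limits. The exception was Pdp1, whose ratio of the highest ClkDN to the lowest control library was 1.19 at D10 and 0.449 at D2. Because genotype levels chose the members, the genotype differences below are a description and carry no test. The change with age within each genotype was tested. The limits set no direct bound on it, but they tie the age changes of the genotypes to each other.

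The study asked how the molecular clock shapes the transcriptome of outer photoreceptors as flies age. The tested flies carried rh1-GAL4, UAS-GFP-Msp300KASH and UAS-ClkDN (Rh1>ClkDN), and the control flies carried the same driver and nuclear tag with UAS-LacZ (Rh1>Ctrl), so that every library came from flies with the GAL4 driver and the tag. Rh1-GAL4 is active in the outer photoreceptors R1 to R6, the tag places GFP on the nuclear envelope, and tagged nuclei were immuno-enriched from pooled heads of male flies kept in 12 h light and 12 h dark at 25 °C and collected at ZT9, that is 9 h after lights on. Nuclear RNA was sequenced from 3 libraries of Rh1>ClkDN at D10, 3 of Rh1>Ctrl at D10, 3 of Rh1>ClkDN at D2 and 3 of Rh1>Ctrl at D2. The younger flies are labelled D2 on the libraries and called 1 day old in the study's text. All RNA here is nuclear, so the values describe nuclear transcripts and not cytoplasmic mRNA.

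Clock (Clk) and its partner Cycle form the heterodimer that binds E-box sequences and activates transcription at the positive arm of the insect clock. Its targets include period and timeless, whose proteins feed back on the dimer, and vri, Pdp1 and cwo, which form further loops. A ClkDN protein that lacks DNA binding can still pair with Cycle and so takes Cycle out of active dimers. Outer photoreceptors detect light with Rhodopsin 1 held in the rhabdomere, a stack of microvilli, signal through a Gq protein, phospholipase C and the TRP channels, and release histamine at their synapses.

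Library totals ranged 4.15-fold, with 5635951 counts in replicate 3 of Rh1>ClkDN at D2 as the highest and 1356529 in replicate 2 of Rh1>Ctrl at D10 as the lowest. Clk itself, whose reads include the transgene, lay between 5937 and 9916 CPM in the 6 Rh1>ClkDN libraries, against 17.05 to 74.2 CPM in the 6 Rh1>Ctrl libraries. Replicate 3 of Rh1>Ctrl at D2 stood apart, with 832 genes at a count of 0 against 2014 to 4662 in the other 11 libraries and a TMM scaling factor of 1.40 against 0.835 to 1.15. That library was the lowest of its group for 60 of the 81 genes, and replicates 1, 2 and 3 of Rh1>Ctrl at D10 were the lowest for 45, 25 and 11. Scaling CPM by the TMM factors gave 36 genes within the limits, 34 of them among the 81. The same scaling without replicate 3 of Rh1>Ctrl at D2 gave 121, 76 of them among the 81, a setting chosen after seeing the data. On the TMM-scaled totals the Rh1>ClkDN libraries still lay below the Rh1>Ctrl libraries for all 81 genes at both ages, with a highest ratio of 0.641 at D10 and 0.898 at D2. Members outside the limits on those totals included ninaC, Itpr, inaF-B, Hdc, Slob, Doa, Lpin, btsz and didum. Those that stayed within them included crb, prom, Gbeta76C, gl and Cipc. Without replicate 2 of Rh1>Ctrl at D10 the number of members was 120.

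The summed counts of the 81 genes took 3.24% to 3.51% of each Rh1>ClkDN library at D10, against 8.77% to 10.2% of each Rh1>Ctrl library at D10. At D2 the shares were 3.83% to 4.01% in Rh1>ClkDN and 9.62% to 11.5% in Rh1>Ctrl. In these bulk samples fewer photoreceptor nuclei and less RNA in each nucleus cannot be told apart. The fitted fold change (edgeR, Rh1>ClkDN over Rh1>Ctrl) had a median of -1.71 on the log2 scale at D10, a 3.27-fold lower level, and -1.61 at D2, a 3.05-fold lower level. The median over all genes tested was -0.03 at D10 and 0.04 at D2. Individual falls ran between -3.54 and -1.01 at D10 and between -5.89 and -0.93 at D2, and 20 genes at D10 and 17 at D2 were at least 4-fold lower, 9 of them at both ages. All 81 were called lower at both ages by edgeR's quasi-likelihood test (fold over 1.5, adjusted p under 0.05), where 9.07% of 7875 genes tested were called lower at D10 and 5.86% of 8220 at D2. This contrast chose the genes, so nothing is read from that count. In the other direction, with the lowest Rh1>ClkDN library more than 1/0.6 of the highest Rh1>Ctrl library at both ages, there were 114 genes with the minimum of 20 CPM kept in Rh1>Ctrl and 271 with that minimum set in Rh1>ClkDN.

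**Figure D1:**
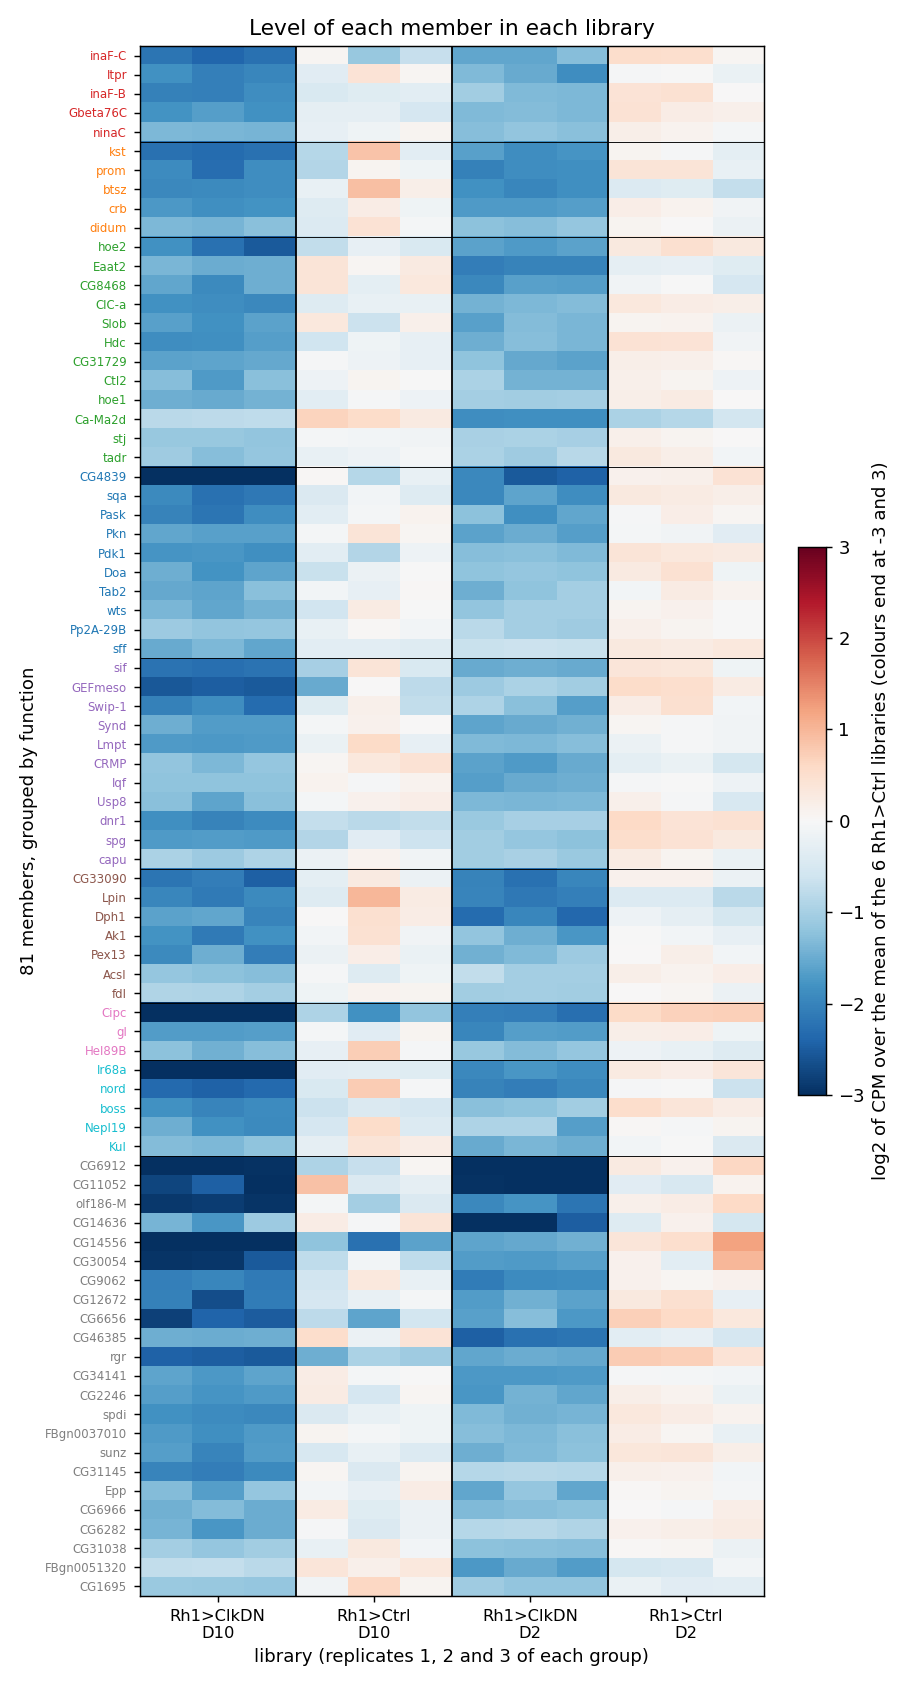
Colours show log2 of the CPM of each of the 81 genes (rows, grouped by function) in each of 12 libraries (columns, 3 for each group), relative to the mean of the 6 Rh1>Ctrl libraries of that gene. The 6 Rh1>ClkDN columns are blue for every gene, since the genes were selected for this, while the shade varies among genes and between ages.

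The 3 members nearest the limit, by the larger of the ratios at the 2 ages, were capu at 0.596, tadr at 0.598 and CG1695 at 0.5995. Just outside were Rim2 at 0.6004, rdgB at 0.6036 and CG13506 at 0.6038. A limit of 0.5 left 46 genes and a limit of 0.7 gave 131, so the edge of the set runs through a continuous range of ratios.

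The group headed phototransduction held 5 members, with a median log2 fold change of -1.69 at D10 and -1.62 at D2. It includes Itpr and inaF-C, which are not on the list of phototransduction genes used further below. The myosin III with a kinase domain encoded by ninaC (chromosome 2L from 7377702 to 7384344, dm6) moves along the rhabdomere actin and takes part in ending the light response. Its level was 4571, 4521 and 4472 CPM in Rh1>ClkDN at D10, against 9931, 10746 and 12395 CPM in Rh1>Ctrl at D10, and 4817, 5161 and 4904 CPM in Rh1>ClkDN at D2, against 13289, 12501 and 11302 CPM in Rh1>Ctrl at D2. The genotypes lay apart at both ages, as the limits required, and the log2 fold change was -1.37 ± 0.17 (SE) at D10 and -1.39 ± 0.23 at D2. Gbeta76C (3L, 19687637 to 19689992) encodes the beta subunit of the eye Gq protein. It had 266, 289 and 259 CPM in Rh1>ClkDN at D10 against 756, 762 and 646 CPM in Rh1>Ctrl, and 362, 373 and 362 CPM in Rh1>ClkDN at D2 against 1231, 1072 and 1019 CPM in Rh1>Ctrl. The log2 fold change of Gbeta76C was -1.50 ± 0.19 at D10 and -1.67 ± 0.21 at D2. The IP3 receptor gene Itpr (3R, 5517117 to 5539411) releases calcium from internal stores. Its level in Rh1>ClkDN was 79.2, 67.4 and 72.4 CPM at D10, against 221, 369 and 291 CPM in Rh1>Ctrl, and 111, 97.4 and 77.4 CPM at D2, against 274, 277 and 244 CPM in Rh1>Ctrl. The fitted log2 fold change of Itpr was -2.08 ± 0.21 at D10 and -1.56 ± 0.21 at D2.

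inaF-B (X, 11724668 to 11732770) encodes a small membrane protein needed for TRP channel function. It had 34.6, 33.9 and 38.4 CPM in Rh1>ClkDN at D10 against 103, 109 and 112 CPM in Rh1>Ctrl, and 68.5, 56.3 and 55.5 CPM in Rh1>ClkDN at D2 against 186, 193 and 141 CPM in Rh1>Ctrl. inaF-C overlaps it on the same strand and shares the locus with inaF-D, so the counts of inaF-B and inaF-C cannot be cleanly separated. inaF-C had log2 fold changes of -1.89 ± 0.34 at D10 and -1.91 ± 0.26 at D2, and inaF-B had -1.69 ± 0.20 and -1.62 ± 0.24 at the same ages.

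Across the wider pathway, a list of 34 phototransduction genes was drawn up with earlier results known, and 31 were in the table. Of these, 18 were called lower and 1 was called higher in Rh1>ClkDN at D10, with a median log2 fold change of -1.05. At D2 18 were called lower and 2 higher, with a median of -0.98. Over all genes tested, 14.5% were called higher at D10 and 10.2% at D2, beside the shares called lower given above. The members on that list are ninaC, Gbeta76C and inaF-B. It also holds ninaE, trp, trpl, inaD, Arr1 and Arr2, which were set aside by name and met the same limits. All of these genes met limits on this same contrast, so nothing is read from their calls. rdgB, which encodes a phosphatidylinositol transfer protein, is on the list and lay just outside the limit with a larger ratio of 0.6036.

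**Figure D2:**
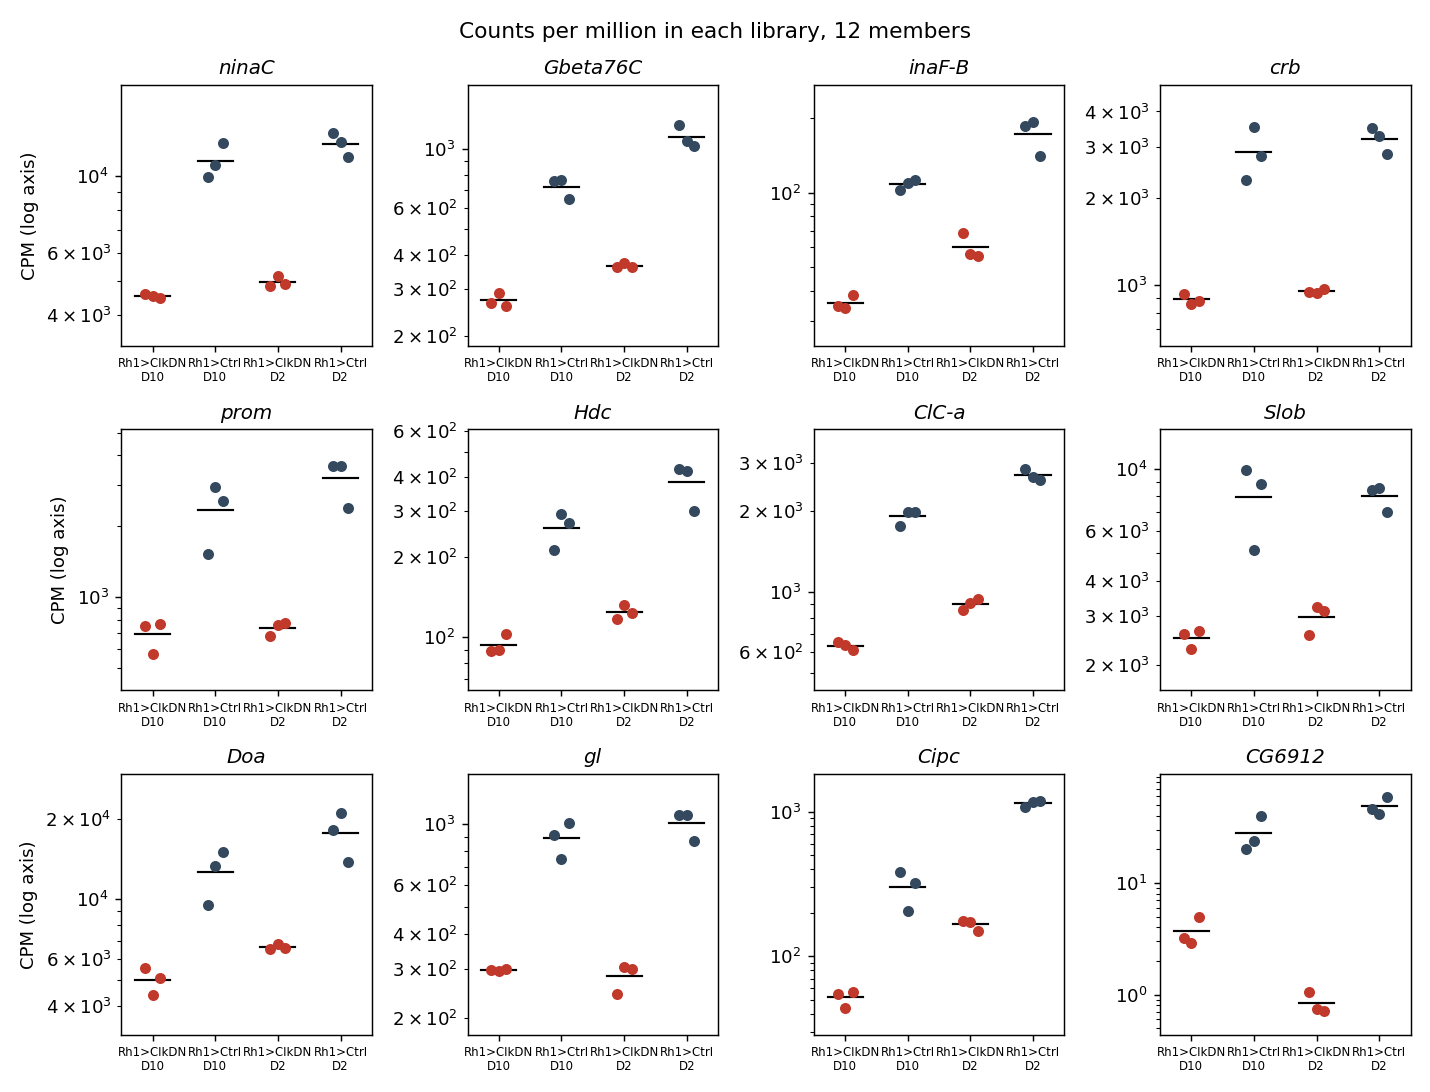
CPM (log axis) of 12 members in every library, with red points for Rh1>ClkDN, dark points for Rh1>Ctrl and a line at the mean of 3 libraries. In each panel the Rh1>ClkDN points lie below the Rh1>Ctrl points of the same age, as the limits required. Cipc falls with age in both genotypes while CG6912 lies higher at D10 than at D2 in Rh1>ClkDN.

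The apical membrane and rhabdomere gave 5 members with a median log2 fold change of -1.81 at D10 and -1.75 at D2. Prominin (prom, 2R, 24415410 to 24428387) keeps neighbouring rhabdomeres apart. It had 753, 571 and 764 CPM in Rh1>ClkDN at D10 against 1516, 2937 and 2550 CPM in Rh1>Ctrl, and 682, 756 and 775 CPM in Rh1>ClkDN at D2 against 3593, 3622 and 2380.0 CPM in Rh1>Ctrl. The Rh1>Ctrl libraries spread more than the Rh1>ClkDN libraries, and no Rh1>ClkDN library reached them, as the limits required. The log2 fold change was -1.81 ± 0.24 at D10 and -2.20 ± 0.28 at D2. Crumbs (crb, 3R, 24295078 to 24314541) sets the apical domain of photoreceptors. It had 928, 857 and 880 CPM in Rh1>ClkDN at D10 against 2314, 3544 and 2804 CPM in Rh1>Ctrl, and 943, 932 and 966 CPM in Rh1>ClkDN at D2 against 3499, 3283 and 2839 CPM in Rh1>Ctrl. Its log2 fold change was -1.77 ± 0.18 at D10 and -1.83 ± 0.22 at D2, nearly equal at the 2 ages. kst, the beta-heavy spectrin that sits under the apical membrane, differed by -2.38 ± 0.36 at D10 and -1.75 ± 0.23 at D2. btsz, a synaptotagmin-like protein, differed by -2.33 ± 0.26 and -1.46 ± 0.22 and didum, the myosin V that carries Rhodopsin 1 towards the rhabdomere, by -1.42 ± 0.20 and -1.26 ± 0.20. On the list of rhabdomere and apical membrane genes, 8 of 11 were called lower at D10 and 7 of 11 at D2, and none was called higher. Over all genes tested, 9.07% were called lower at D10 and 5.86% at D2. Members on that list are crb, prom and ninaC, which were chosen on this contrast, so nothing is read from their calls.

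Histamine synthesis, channels and transporters formed the largest named group, with 12 members and median log2 fold changes of -1.53 at D10 and -1.56 at D2. Hdc (2R, 10237988 to 10246077) makes histamine, the transmitter of fly photoreceptors. Its level was 89.1, 89.6 and 103 CPM in Rh1>ClkDN at D10 against 213, 292 and 270.4 CPM in Rh1>Ctrl, and 117, 132 and 123 CPM in Rh1>ClkDN at D2 against 431, 424 and 299 CPM in Rh1>Ctrl. The chloride channel gene ClC-a (3R, 11797244 to 11813207) had 650, 633 and 607 CPM in Rh1>ClkDN at D10 against 1750.0, 1976 and 1982 CPM in Rh1>Ctrl, and 859, 906 and 936 CPM in Rh1>ClkDN at D2 against 2848, 2669 and 2604 CPM in Rh1>Ctrl. As the limits required, both genes were lower in every Rh1>ClkDN library. The log2 fold changes were -1.54 ± 0.19 (D10) and -1.71 ± 0.26 (D2) for Hdc and -1.68 ± 0.16 and -1.65 ± 0.20 for ClC-a. Slob, which binds the Slowpoke potassium channel, was among the members with most counts. It had 2584, 2275 and 2636 CPM in Rh1>ClkDN at D10 against 9895, 5126 and 8841 CPM in Rh1>Ctrl, and 2559, 3218 and 3105 CPM in Rh1>ClkDN at D2 against 8411, 8586 and 7014 CPM in Rh1>Ctrl. The log2 fold change of Slob was -1.78 ± 0.29 at D10 and -1.50 ± 0.25 at D2. Eaat2, a taurine and aspartate transporter, had 527, 485 and 497 CPM in Rh1>ClkDN at D10 against 1766, 1424 and 1652 CPM in Rh1>Ctrl, and 324, 338 and 341 CPM in Rh1>ClkDN at D2 against 1124, 1141 and 1058 CPM in Rh1>Ctrl, a log2 fold change of -1.78 ± 0.19 and -1.79 ± 0.19. The calcium channel alpha2-delta subunit genes stj (-1.15 ± 0.17 at D10 and -1.12 ± 0.20 at D2) and Ca-Ma2d (-1.38 ± 0.20 and -1.10 ± 0.16) were at the smaller end of the set. The other members of this group were hoe1 and hoe2, relatives of the mammalian P protein, the predicted monocarboxylate transporter CG8468, the amino acid transporter tadr, the P4-ATPase CG31729 and the choline transporter-like Ctl2, with log2 fold changes between -1.90 and -1.11 at D10 and between -2.05 and -1.15 at D2.

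Protein kinases and phosphatases gave 10 members with median log2 fold changes of -1.46 at D10 and -1.49 at D2. CG4839, predicted to encode a kinase related to cGMP-dependent kinases, had the strongest fall of them. It had 4.45, 8.76 and 10.5 CPM in Rh1>ClkDN at D10 against 97.7, 53.1 and 82.7 CPM in Rh1>Ctrl, and 25.1, 16.7 and 17.9 CPM in Rh1>ClkDN at D2 against 106, 107 and 129 CPM in Rh1>Ctrl. The fall was 10.7-fold at D10 and 5.97-fold at D2. CG44153 lies on the opposite strand of CG4839, and because strand use in counting was not given in the sources used here, reads of the pair cannot be told apart. The LAMMER kinase gene Doa (3R, 28888073 to 28922772), which phosphorylates splicing factors, had the highest mean CPM of all members. It had 5522, 4380 and 5061 CPM in Rh1>ClkDN at D10 against 9484, 13304 and 15079.5 CPM in Rh1>Ctrl, and 6536, 6807 and 6561 CPM in Rh1>ClkDN at D2 against 18186, 20931 and 13829 CPM in Rh1>Ctrl. The log2 fold change was -1.41 ± 0.20 at D10 and -1.49 ± 0.27 at D2. The other kinases were Pkn, Pdk1, the Hippo pathway kinase wts, the SAD kinase sff, the myosin light chain kinase relative sqa and the PAS kinase Pask, and they came with Tab2 and the PP2A scaffold Pp2A-29B. Their log2 fold changes lay between -2.01 and -1.15 at D10 and between -2.08 and -0.996 at D2.

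Genes for the cytoskeleton, endocytosis and ubiquitin gave 11 members, with median log2 fold changes of -1.57 at D10 and -1.55 at D2. lqf, the fly epsin, had 2146, 2172 and 2148 CPM in Rh1>ClkDN at D10 against 5361, 4899 and 5315 CPM in Rh1>Ctrl, and 1572, 1742 and 1790 CPM in Rh1>ClkDN at D2 against 4855, 4951 and 4495 CPM in Rh1>Ctrl. The libraries of each group were close together, and the fold was 2.56 at D10 and 2.92 at D2. sif, a Rac exchange factor, and GEFmeso differed by -2.04 ± 0.29 and -1.92 ± 0.33 at D10 and by -1.79 ± 0.24 and -1.54 ± 0.22 at D2. The formin capu, the DOCK-family factor spg, the F-BAR protein Synd, the deubiquitinase Usp8, the ubiquitin ligase dnr1, the EF-hand protein Swip-1, the LIM protein Lmpt and CRMP differed by -1.87 to -1.01 at D10 and by -1.64 to -1.18 at D2.

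Lipid, sugar and nucleotide metabolism gave 7 members with median log2 fold changes of -2.03 at D10 and -1.42 at D2. Lpin, the phosphatidate phosphatase lipin, had 523, 469 and 547 CPM in Rh1>ClkDN at D10 against 1552, 4059 and 2422 CPM in Rh1>Ctrl, and 519, 459 and 493 CPM in Rh1>ClkDN at D2 against 1533, 1536 and 1162 CPM in Rh1>Ctrl. Its Rh1>ClkDN libraries were alike at the 2 ages, and the Rh1>Ctrl libraries at D10 spread widely. The fall was 5.42-fold at D10 and 3.05-fold at D2. CG33090, a relative of the glucosylceramidase GBA2, fell 4.81-fold at D10 and 4.55-fold at D2. The acyl-CoA synthetase Acsl, the peroxisomal Pex13, the hexosaminidase fdl, the adenylate kinase Ak1 and the diphthamide gene Dph1 made up the rest, with log2 fold changes between -2.07 and -1.06 at D10 and between -1.96 and -1.09 at D2.

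Receptors, secreted and surface proteins gave 5 members. Ir68a, an ionotropic receptor known in moist sensing, had 5.47, 7.64 and 14.7 CPM in Rh1>ClkDN at D10 against 102, 103 and 99.3 CPM in Rh1>Ctrl, and 33.5, 38.7 and 35.7 CPM in Rh1>ClkDN at D2 against 154, 147 and 166 CPM in Rh1>Ctrl. The fall was the deepest of all members at D10, 11.6-fold, and was 4.48-fold at D2. boss, the ligand of the Sevenless receptor, had 111, 97.9 and 104 CPM in Rh1>ClkDN at D10 against 249, 285 and 272 CPM in Rh1>Ctrl, and 162, 167 and 186 CPM in Rh1>ClkDN at D2 against 562, 501 and 453 CPM in Rh1>Ctrl. nord, a modulator of BMP signals, fell 6.05-fold at D10 and 3.70-fold at D2, the ADAM protease Kul 2.82-fold and 2.58-fold, and the neprilysin-like Nepl19 3.30-fold and 2.33-fold.

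Transcription and clock gave 3 members. Cipc (3R, 26106868 to 26130674) is the fly relative of a mammalian inhibitor of CLOCK. It had 55.1, 44.0 and 57.0 CPM in Rh1>ClkDN at D10 against 383, 207 and 321 CPM in Rh1>Ctrl, and 175, 173 and 150.5 CPM in Rh1>ClkDN at D2 against 1079, 1175 and 1192 CPM in Rh1>Ctrl. The fall was 6.32-fold at D10 and 7.17-fold at D2. CG14556 lies within Cipc on the same strand (3R, 26126659 to 26127868), so its fall of 4.84-fold at D10 and 4.80-fold at D2 may share reads with Cipc. gl (3R, 18367927 to 18372738) encodes Glass, the zinc finger factor that photoreceptor differentiation requires. It had 298, 296 and 299.6 CPM in Rh1>ClkDN at D10 against 912, 745 and 1009 CPM in Rh1>Ctrl, and 243, 304 and 299 CPM in Rh1>ClkDN at D2 against 1075, 1081 and 866 CPM in Rh1>Ctrl. Its log2 fold change was -1.67 ± 0.20 at D10 and -1.90 ± 0.24 at D2. On the list of retinal transcription factors, 8 of 17 tested were called higher and 2 lower at D10. At D2 11 of 19 tested were called higher and 1 lower. Over all genes tested, 14.5% were called higher and 9.07% lower at D10, and 10.2% higher and 5.86% lower at D2. The gene called lower at D2 is gl, which is also among the 2 at D10. gl was chosen on this contrast, so nothing is read from its calls. The helicase gene Hel89B was the third member, with -1.59 ± 0.24 at D10 and -1.02 ± 0.20 at D2.

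No role is stated here for the remaining 23 members, among them the deepest fall of the set at D2. CG6912 (3R, 15135138 to 15137004) had 3.24, 2.92 and 4.92 CPM in Rh1>ClkDN at D10 against 20.2, 23.6 and 39.7 CPM in Rh1>Ctrl, and 1.05, 0.744 and 0.710 CPM in Rh1>ClkDN at D2 against 45.8, 42.0 and 58.6 CPM in Rh1>Ctrl. The fall was 8.02-fold at D10 and 59.2-fold at D2. The D2 libraries of Rh1>ClkDN held only 4 counts each, so the size of the D2 fold is uncertain by counting alone. CG11052 had 5.47, 6.74 and 3.13 CPM in Rh1>ClkDN at D10 against 67.9, 27.3 and 30.4 CPM in Rh1>Ctrl, and 4.71, 4.65 and 2.31 CPM in Rh1>ClkDN at D2 against 29.0, 26.5 and 39.5 CPM in Rh1>Ctrl. It fell 8.92-fold at D10 and 8.36-fold at D2. CG14636 had 15.4, 12.1 and 19.0 CPM in Rh1>ClkDN at D10 against 47.3, 39.8 and 52.6 CPM in Rh1>Ctrl, and 3.14, 3.72 and 7.27 CPM in Rh1>ClkDN at D2 against 31.1, 44.3 and 28.4 CPM in Rh1>Ctrl. That was a 3.23-fold fall at D10 and a 7.54-fold fall at D2, and the gene lies opposite aux and beta-Man, so its counts are uncertain without strand. olf186-M lies inside Orai on the same strand, and its level was 22.5, 23.1 and 21.7 CPM in Rh1>ClkDN at D10 against 160.2, 82.6 and 124 CPM in Rh1>Ctrl, and 43.4, 49.3 and 36.2 CPM in Rh1>ClkDN at D2 against 187, 194 and 252 CPM in Rh1>Ctrl. Its fall was 5.90-fold at D10 and 5.02-fold at D2, and Orai, the calcium release-activated channel gene, had log2 fold changes of -1.79 and -2.02. sunz, among the members with most counts, had 1405, 1113 and 1371 CPM in Rh1>ClkDN at D10 against 3136, 3748 and 3322 CPM in Rh1>Ctrl, and 1606, 1763 and 1866 CPM in Rh1>ClkDN at D2 against 5619, 5631 and 4977 CPM in Rh1>Ctrl. The other 17 of these members had log2 fold changes between -2.33 (CG30054) and -1.13 (FBgn0051320) at D10 and between -2.23 (rgr) and -0.93 (CG1695) at D2. Members FBgn0037010 and FBgn0051320 have no symbol in the name table and are given by their identifiers.

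**Figure D3:**
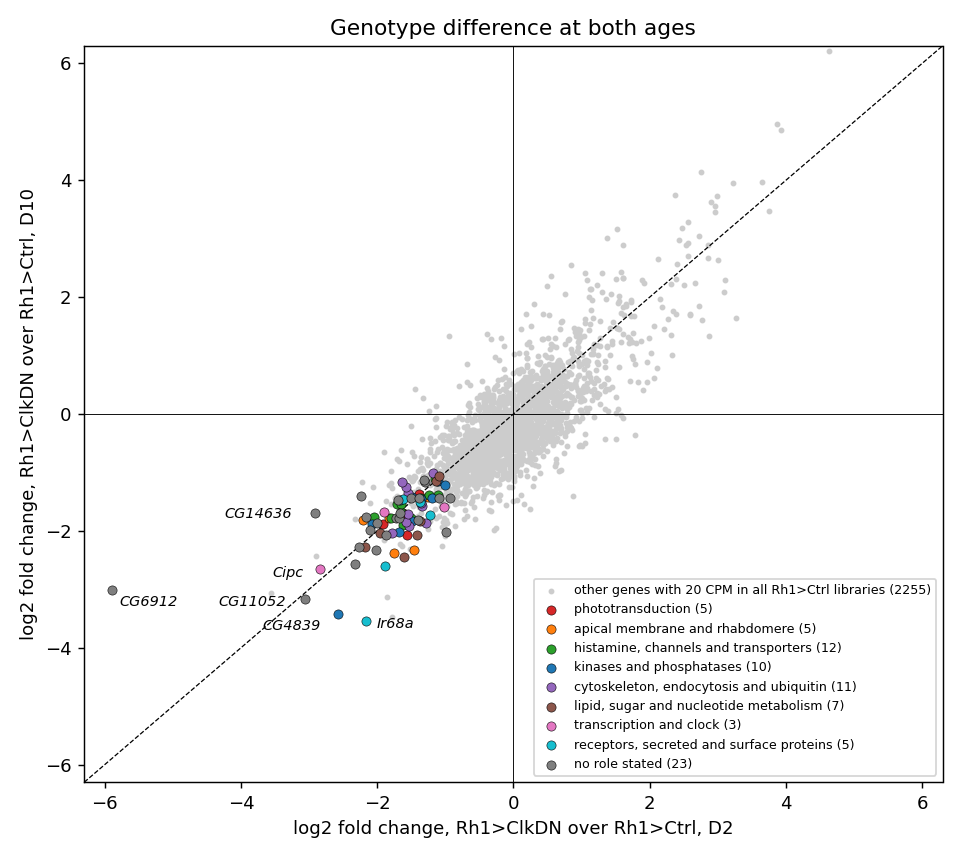
Fitted log2 fold change of Rh1>ClkDN over Rh1>Ctrl at D2 (horizontal) and D10 (vertical), for the 81 members coloured by function and for 2255 other genes with at least 20 CPM in every Rh1>Ctrl library in grey. Members lie below -0.93 on the horizontal and below -1.01 on the vertical axis because of the limits used, and CG6912 lies far to the left.

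The falls at the 2 ages were within 1.5-fold of each other for 69 of the 81 genes. The fall was over 1.5-fold larger at D10 for 9 genes (CG4839, Ir68a, nord, kst, Lpin, btsz, Ak1, Lmpt and CG31145) and over 1.5-fold larger at D2 for 3 (CG6912, CG14636 and rgr). For nord, kst, Lpin, btsz, Ak1 and Lmpt, replicate 2 of Rh1>Ctrl at D10, the library with the lowest total, stood well above replicates 1 and 3. kst, for example, had 1970, 6431 and 2852 CPM in replicates 1, 2 and 3 of Rh1>Ctrl at D10. The part of that library in the larger D10 falls was not tested. The interaction term in a fit of all 12 libraries gives the difference between the falls at the 2 ages. Both falls were bounded by the limits that chose the genes, so the interaction is given as a description and its counts are not read against the background. It was called for 1 of the 81 genes, CG6912, where 0.613% of 9135 genes tested and 0.771% of those with 20 CPM in all Rh1>Ctrl libraries were called. Its fitted value was 2.95 ± 0.53 on the log2 scale (D10 minus D2). The CG6912 call was lost without replicate 2 or 3 of Rh1>ClkDN at D2 or replicate 1 or 3 of Rh1>ClkDN at D10.

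The limits set no direct bound on the change with age within a genotype, but they tie the age changes of the genotypes to each other. The background genes below were not held to the ratio limits, so their shares are not a like-for-like comparison. In Rh1>ClkDN, D10 over D2, 19 members (23.5%) were called lower and 6 (7.41%) higher, where called means an adjusted p under 0.05 and a fold over 1.5. Among all 8451 genes tested, 6.18% were called lower and 8.44% higher, and among genes with 20 CPM in every Rh1>Ctrl library 8.95% were called lower and 7.79% higher. The fitted change was negative for 60 members and positive for 21, with a median of -0.29 on the log2 scale against -0.07 among all genes with 20 CPM. For 42 members every D10 library of Rh1>ClkDN lay below every D2 library, for 11 above, and for 28 the ages overlapped. The sign of the change was the same on unscaled library totals for all 81 members in both genotypes.

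In Rh1>Ctrl, 4 members (4.94%) were called lower at D10 and 1 (1.23%) higher. The background was 0.387% lower and 0.318% higher over 7239 genes, and 0.599% and 0.557% among genes with 20 CPM in all Rh1>Ctrl libraries. The median change of the members was -0.17, against 0.10 among the genes with 20 CPM, and 54 of 81 fitted changes were negative. In 45 members the ages overlapped in Rh1>Ctrl. At an unadjusted p under 0.05 in the same edgeR test there were 25 members (30.9%), against 11.2% of all genes tested, which were not held to the minimum of 20 CPM. All 5 calls were lost when replicate 1, 2 or 3 of Rh1>Ctrl at D2, or replicate 3 of Rh1>Ctrl at D10, was left out, and 10 members were called without replicate 2 of Rh1>Ctrl at D10. All 5 (Cipc, CG14556, rgr, dnr1 and Ca-Ma2d) were also called in Rh1>ClkDN in the same direction. The limits hold the Rh1>ClkDN level under 0.6 of the Rh1>Ctrl level at both ages and so tie the age changes of the genotypes to each other, and nothing is read from that overlap.

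**Figure D4:**
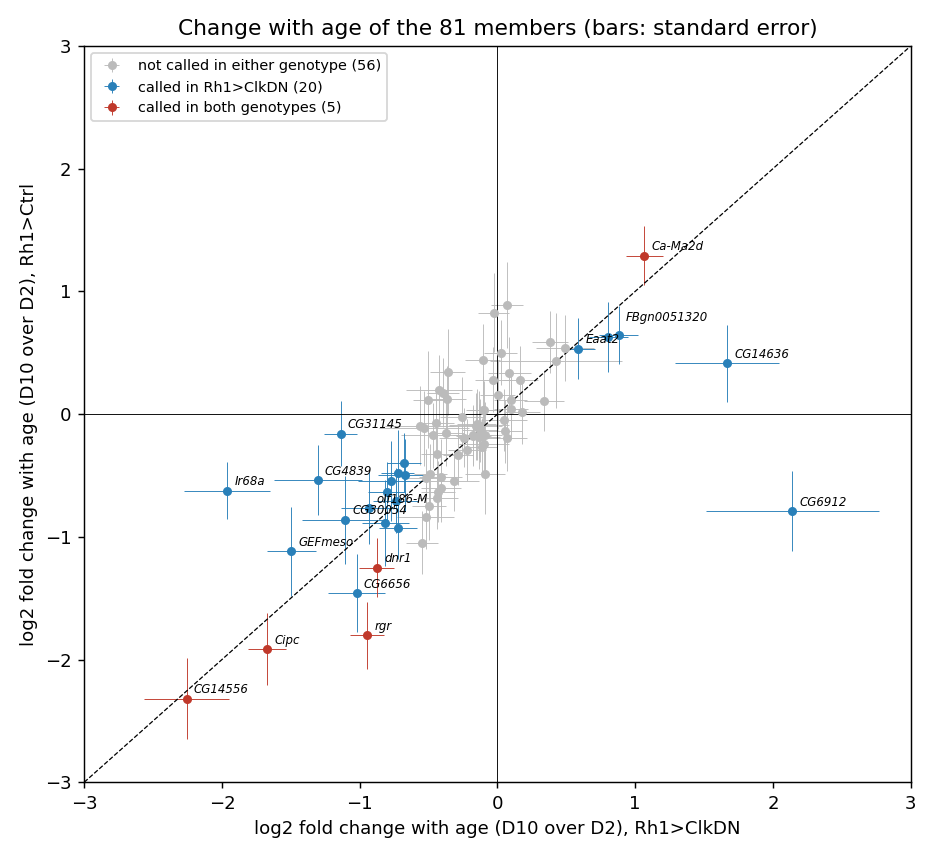
Fitted log2 change with age (D10 over D2) in Rh1>ClkDN (horizontal) and Rh1>Ctrl (vertical) for the 81 members, with standard error bars. Red points, called in both genotypes, are CG14556, Cipc, rgr, dnr1 and Ca-Ma2d, and CG6912 lies apart, with a positive change in Rh1>ClkDN and a negative one in Rh1>Ctrl.

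Cipc fell with age to 55.1, 44.0 and 57.0 CPM at D10 in Rh1>ClkDN, against 175, 173 and 150.5 CPM at D2 (log2 fold change -1.67 ± 0.14, adjusted p = 7.76e-07). In Rh1>Ctrl it had 383, 207 and 321 CPM at D10 against 1079, 1175 and 1192 CPM at D2 (-1.92 ± 0.29, adjusted p = 0.0191). The ages did not overlap in either genotype. CG14556, which shares the Cipc locus, fell in both, with log2 changes of -2.26 ± 0.31 (adjusted p = 9.67e-05) in Rh1>ClkDN and -2.32 ± 0.33 (adjusted p = 0.0182) in Rh1>Ctrl. rgr had 131, 126 and 123 CPM at D10 in Rh1>ClkDN against 237, 251 and 244 CPM at D2, and 256, 362 and 334 CPM at D10 in Rh1>Ctrl against 1191, 1147 and 929 CPM at D2. The log2 change of rgr was -0.95 ± 0.13 (adjusted p = 7.38e-05) in Rh1>ClkDN and -1.80 ± 0.27 (adjusted p = 0.0191) in Rh1>Ctrl. The calcium channel subunit gene Ca-Ma2d rose, with 145, 147 and 151 CPM at D10 in Rh1>ClkDN against 69.5, 71.2 and 70.8 CPM at D2, and 402, 371 and 308 CPM at D10 in Rh1>Ctrl against 132, 139.8 and 172 CPM at D2. Its log2 change was 1.07 ± 0.13 (adjusted p = 3.9e-05) in Rh1>ClkDN and 1.29 ± 0.24 (adjusted p = 0.0443) in Rh1>Ctrl.

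Among the genes called in Rh1>ClkDN, CG31145 had 242, 224 and 251 CPM at D10 against 525, 529 and 525 CPM at D2, a change of -1.14 ± 0.12 (adjusted p = 7.82e-06). GEFmeso had 24.1, 25.2 and 24.4 CPM at D10 against 66.1, 72.9 and 68.5 CPM at D2, a change of -1.50 ± 0.18 (adjusted p = 2.72e-05). Both sets of 3 libraries were tight and did not overlap. The phototransduction members inaF-B (-0.74 ± 0.16, adjusted p = 0.0046) and inaF-C (-0.81 ± 0.17, adjusted p = 0.003) were also called lower, as were boss, sif, sff, Swip-1, olf186-M, CG4839, CG6656, CG6282, CG12672, CG30054, Ir68a and dnr1. Gbeta76C had a change of -0.43 ± 0.12 with an adjusted p of 0.0244, which missed the fold limit. The 6 genes called higher with age were Eaat2 (0.59 ± 0.12), CG46385 (0.80 ± 0.14), FBgn0051320 (0.88 ± 0.14), Ca-Ma2d, CG14636 (1.67 ± 0.38) and CG6912 (2.14 ± 0.63). For CG6912 the Rh1>ClkDN libraries held 16, 13 and 22 counts at D10 against 4, 4 and 4 counts at D2, and its call with age was lost in 7 of 11 alternatives. The calls of CG12672 (lost in 6 of 11), Swip-1 and CG30054 (5 of 11 each) and Eaat2 (4 of 11) also depended on the setting. ninaC, crb, prom, Hdc, Slob, Doa and gl were not called with age in either genotype. Lack of a call is not evidence of a constant level. In simulated counts the age test called 45.6% of true 2-fold changes in Rh1>ClkDN and 2.04% in Rh1>Ctrl, so the numbers of calls in the genotypes cannot be compared.

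The summed levels of several marker lists differed between genotypes. The summed CPM of 7 markers of R1 to R6 lay between 30812 and 31056 in Rh1>ClkDN at D10 and between 61754 and 88438 in Rh1>Ctrl at D10, and between 26985 and 27863 in Rh1>ClkDN at D2 and between 57792 and 72020 in Rh1>Ctrl at D2, and all 7 were called lower at both ages. Over all genes tested, 9.07% were called lower at D10 and 5.86% at D2. Hdc and ninaC belong to both that list and the members. ninaE, Arr2 and trp are on it too, and they were set aside by name and met the same limits. Only chp and norpA of that list did not meet limits on this contrast, so nothing is read from the calls of the others. The sum over 9 glial markers was 1567 to 1644 CPM in Rh1>ClkDN against 378 to 478 CPM in Rh1>Ctrl at D10, and 976 to 1312 CPM against 343 to 365 CPM at D2, with no marker at 0 in any library. These sums do not stand for the whole list, since 2 of 8 markers tested at D10 and 3 of 9 at D2 were called higher, none was called lower, and the median log2 fold change was -0.25 at D10 and 0.19 at D2. The 8 cone and pigment cell markers summed to 3773 to 4372 CPM in Rh1>ClkDN against 1328 to 1641 CPM in Rh1>Ctrl at D10 and to 2977 to 3552 CPM against 899 to 1194 CPM at D2, and only cn was at 0 in some library. Those sums do not stand for the whole list either. The list holds w, and the transgenes of these flies carry a w+ marker, so counts of w may include transgene reads. Of 7 markers tested, 1 was called higher at D10 and 2 at D2, and none lower, with median log2 fold changes of 0.49 at D10 and 0.61 at D2. Their part in the lower levels of the 81 genes was not tested.

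Position and length were not used in the choice. All 79 members found in the annotation are protein coding, and 28 lie on chromosome arm 3R (35.4% of members, 24.2% of genes with 20 CPM), 22 on 2R (27.8% against 18.9%) and 5 on X (6.33% against 17.7%). The median gene length was 10.8 kb against 8.16 kb, 54.4% of members against 43.1% exceeded 10 kb, and the median summed exon length was 3.98 kb against 4.47 kb. The rule did use levels and, through the highest and lowest libraries, the spread among replicates, so both are a description. The median Rh1>Ctrl level of a member was 387 CPM against 110 CPM among genes with 20 CPM, not divided by length, and 21 members had over 1000 CPM. The median coefficient of variation at D10 was 6.61% in Rh1>ClkDN and 17.3% in Rh1>Ctrl for the members, against 8.33% and 25.2% for genes with 20 CPM. At D2 it was 6.45% in Rh1>ClkDN and 9.94% in Rh1>Ctrl for the members, against 8.498% and 12.0%. The tighter replicates also enter the tests of age, and their part in the share of age calls was not tested. In all, 45 members overlap another annotated gene, and 14 overlap one with more than 10% of their own mean count, on the same strand for 9 and the opposite strand for 6. Besides those above, CG12672 lies in Sh, a potassium channel gene that was higher in Rh1>ClkDN (log2 fold change 0.91 at D10 and 1.35 at D2), CG34141 in Pkn, and spdi opposite vnd, whose log2 fold change was 4.13 at D10 and 3.16 at D2. Nepl19 overlaps CG33203 on the same strand, with a mean of 149 counts against 2003 for CG33203. CG8468 lies opposite Opa1 and Swip-1 opposite CG10431. The falls of all these members may include reads of the other gene. Promoter sequences were not analysed here.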

How the data were processed

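Nuclear RNA of 12 libraries (4 groups of 3) was analysed from a table of gene counts deposited by the authors. The name of the deposited table calls it normalized, but its values are whole counts whose library totals differ 4.15-fold, and they were taken as raw counts per gene. The submitters' processing notes name Trimmomatic, STAR, SAMtools and DESeq2 with dm6 (BDGP6), whereas the counting tool, its strand setting and the versions were not given in the sources used here. CPM was the count over the column total. Comparisons used edgeR 4.0.16 (quasi-likelihood, TMM factors, a gene needed 10 or more counts in 3 or more of the libraries fitted), with pairs of groups fitted alone and all 12 libraries for the interaction. Calls needed a Benjamini-Hochberg adjusted p under 0.05 over all genes tested and, except for the interaction, a fold over 1.5. R 4.3.3, DESeq2 1.42.0 and limma 3.58.1 gave the alternatives. The edgeR fits were tested on simulated counts in which few genes, drawn at random from all genes tested, were changed. True 4-fold changes were called in 81.3% of cases for age in Rh1>ClkDN, 51.8% for age in Rh1>Ctrl and 19.5% for the interaction. True 2-fold changes were called in 45.6%, 2.04% and 0.909%. Symbols matched 13865 of 13929 identifiers, and positions are from Ensembl release 115.

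The members and gene lists were chosen with earlier results of these data known. Genes named in full were the 8 with the lowest mean fold change, the 5 with most counts in Rh1>Ctrl, members on a functional list, the 4 smallest adjusted p per test and the 3 genes on each side of the ratio limit. Other members were named by function after their values were seen. Lists of muscle, fat body, haemocyte, accessory gland, brain neuron and R7 and R8 markers, and of the clock, channels, ion pumps, phosphoinositides, chromophore and histamine genes, were also fixed. Replicates are biological replicates by the study's methods, and the labels give neither a culture nor a batch, so p-values measure the spread between these libraries. Replicate pairs differed by more than sampling noise. Leave-one-out fits, other normalizations and other filters were tried.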

Additional observations from a re-analysis of the deposited data

Results flagged for a closer look

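CG6912 was the only member whose interaction of genotype and age passed the threshold, with a value of 2.95 on the log2 scale (D10 minus D2), a contrast bounded by the limits that chose the gene. Its counts were 16, 13 and 22 in Rh1>ClkDN and 61, 32 and 193 in Rh1>Ctrl at D10, and 4, 4 and 4 in Rh1>ClkDN and 242, 212 and 157 in Rh1>Ctrl at D2.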

How the results depend on the processing

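The number of genes within the limits was 46 with a ratio limit of 0.5, 131 with 0.7, 36 on TMM-scaled totals (34 of them among the 81) and 143 without both replicate 3 of Rh1>Ctrl at D2 and replicate 2 of Rh1>Ctrl at D10, a setting added after seeing the data, and leaving out 1 library gave 81 to 120. Of the 81, 25 were called with age in Rh1>ClkDN, 12 when all 12 libraries were fitted together and 19 to 26 with 1 library left out. In Rh1>Ctrl 5 were called, 8 with DESeq2, 9 with all 12 libraries fitted together and 0 to 10 with 1 library left out. The interaction was called for 0 to 2 members with 1 library left out. The replicate numbers did not pair the samples (correlations of same-numbered deviations between -0.300 and 0.247), and a replicate block gave 3 calls with age in Rh1>Ctrl and 24 in Rh1>ClkDN. The cause of these shifts was not tested. Over all genes, calls lower in Rh1>ClkDN at D10 numbered 714, or 333 with the block, at D2 482, or 301 without the filter on low counts, and with age in Rh1>ClkDN 1235, or 287 with all 12 libraries in 1 fit. With age in Rh1>Ctrl they numbered 51, or 189 with DESeq2, 147 without the filter and 235 with all 12 libraries, and for the interaction 56, or 269 with DESeq2, 105 without the filter and 30 with the block. With 1 library left out the all-gene counts ran over 155 to 923 at D10, 252 to 823 at D2, 834 to 1540 and 1 to 171 with age in Rh1>ClkDN and Rh1>Ctrl, and 12 to 117 for the interaction. The genotype calls of the members moved little, with 75 to 81 at D10 and 80 to 81 at D2.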

Other observations

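Gene lists around the members were called as follows in Rh1>ClkDN relative to Rh1>Ctrl, where 9.07% of all genes tested were called lower and 14.5% higher at D10, and 5.86% lower and 10.2% higher at D2. Of 10 phosphoinositide cycle genes, 5 were called lower and 2 higher at D10, and 3 lower and 1 higher at D2. Of 15 genes of histamine handling and the synapse, 4 were called lower and 0 higher at D10, and 5 lower and 1 higher at D2. Core clock genes in the table numbered 16, with 5 called lower and 1 higher at D10 and 7 lower and 1 higher at D2. Of 21 potassium, sodium, calcium and chloride channel genes 19 were tested at each age, and 3 were called lower and 6 higher at D10, and 2 lower and 8 higher at D2. Of 10 calcium exchangers and ion pumps, 3 were called lower and 2 higher at D10, and 2 lower and 4 higher at D2. Of 6 chromophore supply genes 5 were tested, and 2 were called lower at D10 and 0 at D2. Members on these lists (Hdc, ClC-a and Itpr), and any gene set aside by name that met the limits, were lower by choice. Nothing is read from their calls.

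Marker sums of other tissues were also taken. A sum can rest on a few genes and need not stand for its list, so the calls are given beside it. Muscle markers summed to 56.1 to 83.0 CPM in Rh1>ClkDN and 92.1 to 341 CPM in Rh1>Ctrl at D10, and to 142 to 249 CPM in Rh1>ClkDN and 273 to 315 CPM in Rh1>Ctrl at D2. Of these markers, 1 of 4 tested was called lower at D10 and 1 of 5 at D2, and none higher. Brain neuron markers summed to 768 to 838 CPM in Rh1>ClkDN and 329 to 614 CPM in Rh1>Ctrl at D10, and to 464 to 712 CPM in Rh1>ClkDN and 292 to 398 CPM in Rh1>Ctrl at D2. Of 7 tested, 1 was called higher at D10 and 2 at D2, and none lower. R7 and R8 markers summed to 474 to 493 CPM in Rh1>ClkDN and 297 to 387 CPM in Rh1>Ctrl at D10, and to 376 to 693 CPM in Rh1>ClkDN and 224 to 279.8 CPM in Rh1>Ctrl at D2. None of 5 tested was called at D10, with a median log2 fold change of -0.02. At D2 1 of 6 was called higher and none lower, with a median of 0.94. Fat body markers summed to 1249 to 1575 CPM in Rh1>ClkDN and 268 to 1346 CPM in Rh1>Ctrl at D10, and to 578 to 2479 CPM in Rh1>ClkDN and 493 to 601 CPM in Rh1>Ctrl at D2. Called higher were 2 of 5 tested at D10 and 0 of 4 at D2, and none was called lower. Haemocyte markers summed to 79.8 to 84.2 CPM in Rh1>ClkDN and 78.4 to 123 CPM in Rh1>Ctrl at D10, and to 50.6 to 133 CPM in Rh1>ClkDN and 35.2 to 77.6 CPM in Rh1>Ctrl at D2. None of the 2 tested was called at either age. Accessory gland and testis markers summed to 58.1 to 69.6 CPM in Rh1>ClkDN and 1.85 to 3.97 CPM in Rh1>Ctrl at D10, and to 40.3 to 51.1 CPM in Rh1>ClkDN and 2.18 to 45.1 CPM in Rh1>Ctrl at D2. Of these, 4 of 4 tested were called higher at D10 and 1 of 3 at D2, and none lower. How these cell types bear on the members was not tested.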
